A study of Homo sapiens with 24 samples.

Results

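The genes described here are 38 components of the DNA replication machinery, chosen by name and counted in human Panc-1 pancreatic cancer cells with and without induction of an acinar transcription factor. All 38 were among the 14411 genes listed in any of the 3 deposited tables, each was listed in every table, and none was lost to the filter on low counts. They were grouped by role into licensing of origins (10 genes), the fork helicase (6), the polymerases with primase (8), the sliding clamp and its loader (5), replication protein A (3), Okazaki fragment maturation (2), and chromatin assembly, maintenance methylation and thymidylate synthesis (4).

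A total of 3 lines were compared, each with 4 Control and 4 Dox libraries, 24 libraries in all. Tet-PTF1a cells carried a doxycycline-inducible, myc-tagged mouse PTF1a open reading frame, Tet-MIST1 cells carried the rat MIST1 counterpart, and Tet-One cells carried the empty plasmid. Every line was a puromycin-selected stable transformant taken from an individually screened clone, at passage 32 for Tet-One and Tet-PTF1a and passage 33 for Tet-MIST1, so line, clone and passage cannot be told apart. Dox cells received 1 µg per ml doxycycline for 72 h and Control cells received none, in high-glucose medium with tetracycline-depleted serum. PTF1a and MIST1 are basic helix-loop-helix factors of pancreatic acinar cells that are silenced in pancreatic ductal adenocarcinoma, the cancer from which Panc-1 derives.

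DNA is copied once in each cell cycle. In G1, the origin recognition complex, CDC6 and CDT1 load the MCM2 to MCM7 helicase ring onto DNA, which licenses the origin. On entry into S phase, CDC45 and the GINS complex join the ring to form the active helicase, polymerase alpha and primase lay down primers, polymerase epsilon and polymerase delta extend the leading and lagging strands, RFC loads the PCNA clamp, and FEN1 and LIG1 finish the Okazaki fragments. Transcription of many of these genes is driven by E2F factors, which RB1 and its relatives hold in check in quiescent cells, and the genes are therefore used as markers of proliferation. In bulk RNA, fewer cells in S phase and less RNA per cell cannot be told apart.

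Because E2F factors bind near the start sites of this class, promoter sequences were searched for 4 forms of the E2F site (TTTCCCGC, TTTGGCGC, TTTCGCGC and TTTGCCGC, on both strands). RefSeq promoters of GRCh38.p14, running from 250 bases before to 50 bases after each start, were at hand for 32 of the 38 genes. At least 1 such site was present for 18 of these 32 (56.2%), compared with 3.31% of the 35116 windows in the table and 3.99% of its 27305 genes. The CCAAT box was found for 18 members (56.2%, against 39.7% of all genes), and the E-box CAGCTG, the form bound by many basic helix-loop-helix factors, for 5 (15.6%, against 21.1%). The E-box CATCTG was found for 3 (9.38%, against 17.5%), the RBPJ core TGGGAAA for 1 (LIG1, 3.12%, against 9.58%), and the cell cycle genes homology region, TTTGAA or TTCGAA, for 1 (MCM6, 3.12%, against 19.5%). A match is a description of the letters in the window and does not show that the site is used.

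The sequences that follow run 5′ to 3′ up to the base before the annotated start, with an E2F site in capitals. UHRF1 and POLE are shown because they fell in Tet-PTF1a cells, GINS2 and RFC5 because they rose there, CDT1 because it had the smallest p in Tet-One cells, PCNA as the clamp, and RFC3 because its level differed most between lines.
UHRF1, chr19:4909471-4909500, plus strand: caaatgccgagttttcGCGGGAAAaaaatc
POLE, chr12:132687343-132687462, minus strand: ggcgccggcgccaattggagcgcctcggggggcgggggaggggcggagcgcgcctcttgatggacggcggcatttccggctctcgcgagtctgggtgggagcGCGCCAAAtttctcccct
GINS2, chr16:85688955-85689074, minus strand: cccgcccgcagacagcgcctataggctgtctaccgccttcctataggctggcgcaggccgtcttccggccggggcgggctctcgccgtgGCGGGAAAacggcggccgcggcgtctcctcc
RFC5, chr12:118016583-118016702, plus strand: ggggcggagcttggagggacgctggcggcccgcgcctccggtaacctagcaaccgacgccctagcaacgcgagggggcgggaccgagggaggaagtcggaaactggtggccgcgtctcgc
CDT1, chr16:88803669-88803788, plus strand: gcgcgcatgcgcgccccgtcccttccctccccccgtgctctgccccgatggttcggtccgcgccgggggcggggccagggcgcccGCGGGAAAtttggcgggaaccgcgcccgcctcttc
PCNA, chr20:5126623-5126742, minus strand: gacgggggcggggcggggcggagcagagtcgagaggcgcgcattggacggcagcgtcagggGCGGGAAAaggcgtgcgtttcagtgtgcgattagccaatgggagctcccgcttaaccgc
RFC3, chr13:33818029-33818148, plus strand: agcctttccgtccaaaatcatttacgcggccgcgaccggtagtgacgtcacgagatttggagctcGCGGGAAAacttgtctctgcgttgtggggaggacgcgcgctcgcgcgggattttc

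The site of UHRF1 began 14 bases before the start, that of POLE 18 bases, that of GINS2 31 bases, that of CDT1 35 bases, that of RFC3 55 bases and that of PCNA 59 bases before it. RFC5 held none of the 4 forms anywhere in its window. Among the members with a promoter sequence, a site was present for 4 of the 7 that rose in Tet-PTF1a cells, all 4 that fell and 10 of the 21 that were not called, so genes with a site were found in both directions.

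Libraries held between 17210989 and 43018494 counts, and the 38 genes took between 0.336% and 0.489% of them. In Tet-PTF1a cells, the PTF1A row held 0 to 2 counts per Control library and 53 to 168 per Dox library. The induced open reading frame is of mouse and reads were aligned to human hg19, so these counts do not measure the level of its transcript. PTF1A was not listed for Tet-MIST1 and Tet-One, and BHLHA15, the human gene for MIST1, was listed for Tet-PTF1a alone, so the deposited counts give no check of the rat open reading frame. The epithelial keratins KRT8, KRT18 and KRT19 stood at a mean of 69.8 CPM (counts scaled to library size) or more in the Control cells of all 3 lines, while the leukocyte marker PTPRC, the endothelial marker PECAM1, INS and the acinar enzymes CPA1, CELA3A and AMY2A were not listed. With Dox in Tet-PTF1a cells, KRT8, KRT18 and KRT19 changed by -1.30, -1.10 and -1.07 on the log2 scale, KRT7 rose by 1.69 and the fibroblast collagen gene COL1A1 changed by -1.25, each more than any replication gene. KRT7 and COL1A1 passed the count filter in all 3 lines, so 1 of the 4 markers checked for other cell types was counted. Their Control levels are not given here. The trypsinogen gene PRSS1 went from 0.057 ± 0.028 to 3.15 ± 0.27 CPM, and the lipase gene CEL averaged under 1 CPM in every group. Dox replicate 1 of Tet-One and, less so, that of Tet-MIST1 stood apart from the other Dox libraries. In Tet-One Dox replicate 1, POLE read 87.3 CPM where the other Dox libraries read 186 to 197, and RPA3 read 95.8 CPM where they read 44.5 to 46.5.

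Replication genes were well expressed in the Control cells of every line. Levels were compared between genes as RPKM, the CPM value per kilobase of exon, with TMM factors over all 24 libraries. The median member stood at an RPKM of 17.5 in Tet-One Control, against 8.44 for all genes. The most abundant was TYMS, which makes the thymidylate needed for DNA synthesis, at 146 ± 2.9 (SD, n = 4 throughout), followed by the clamp PCNA at 136 ± 3.8 and the helicase subunit MCM7 at 116 ± 5.9. MCM3 (77.1 ± 3.2) and MCM2 (72.4 ± 2.1) came next. At the other end were GINS4 at 4.10 ± 0.17, the catalytic polymerase alpha subunit POLA1 at 5.34 ± 0.30 and GINS3 at 5.55 ± 0.16. POLA1 and GINS3 did not differ beyond their spread, nor did MCM5 (47.0 ± 2.4) and MCM4 (46.5 ± 1.3).

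**Figure D1:**
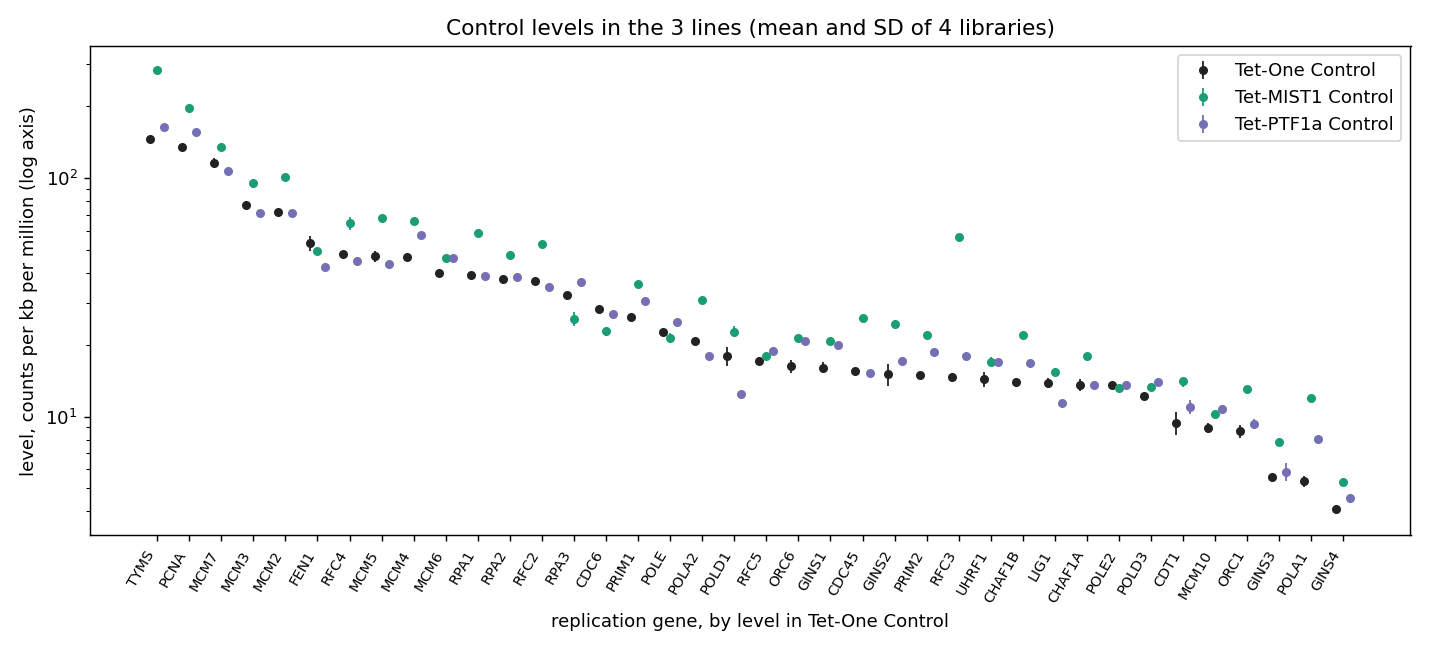
Level of each replication gene in Control cells, as RPKM (CPM per kilobase of exon) on a log axis, as mean and SD of 4 libraries of Tet-One (black), Tet-MIST1 (green) and Tet-PTF1a (purple), ordered by the Tet-One level. TYMS, PCNA and MCM7 lie highest, GINS4 lowest, and the green point of RFC3 stands at 56.6 where the other lines read 14.6 and 18.0.

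PTF1a induction moved the replication machinery little and in both directions. Of the 38 genes, 14 passed an FDR of 0.05 in edgeR's quasi-likelihood test (36.8%, where 48.2% of the 14053 genes tested did). RFC5, MCM10, GINS2, CHAF1A, POLE2, CDC6 and MCM3 rose (7, 18.4%, against 23.8% of all genes), and UHRF1, POLD3, POLE, MCM2, MCM4, MCM5 and TYMS fell (7, 18.4%, against 24.4%). Changes ran from -0.19 to 0.17 on the log2 scale with a median of -0.0084, against 0.0014 over all genes, and the 95% intervals of all 38 lay between -0.25 and 0.24. Of all genes tested, 35.2% changed by more than the replication gene that changed most. The Control and Dox libraries did not overlap for 14 members (6 above, 8 below), the same share of 36.8% against 42.3% of all genes.

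Replicates varied least in this line. Across all genes, the coefficient of variation that edgeR estimated between replicates was 2.80% for Tet-PTF1a, while it was 6.58% for Tet-MIST1 and 14.4% for Tet-One. None of the 14 reached an absolute log2 fold change of 0.2. The split of calls depends on the scaling: dividing by library size in place of TMM, which puts the median of all genes at 0.039, gave 13 that rose and 6 that fell.

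**Figure D2:**
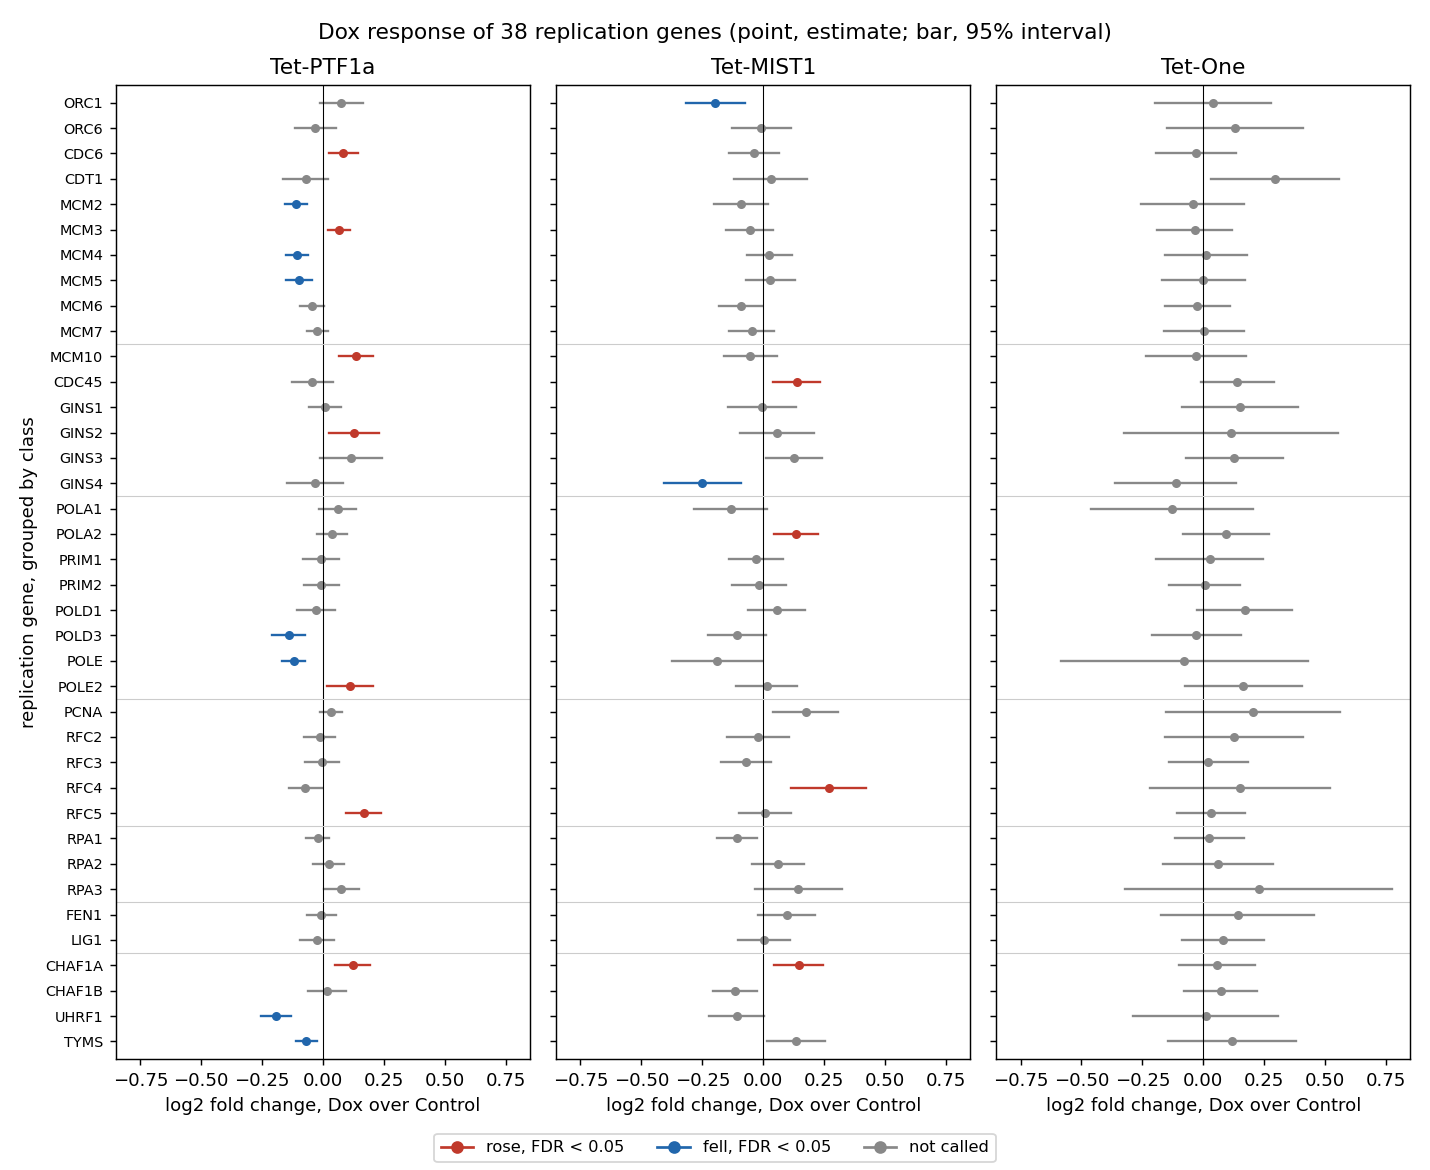
Log2 fold change of Dox over Control for each of the 38 genes in the 3 lines, with its 95% interval, grouped by class from licensing (top) to chromatin and thymidylate (bottom), in red where a gene rose, blue where it fell and grey where it was not called. In Tet-PTF1a the intervals are short and lie between -0.25 and 0.24, and in Tet-One they run from -0.59 to 0.77 with none called.

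Among the licensing factors, subunits of the same helicase ring moved apart in Tet-PTF1a cells. MCM2 read 266, 258, 256 and 258 CPM in the Control libraries and 239.7, 241, 234 and 247 in the Dox libraries. All Dox values lay below all Control values, for a fold change of -0.11 ± 0.023 (log2 ± SE, adjusted p = 6.7e-05). MCM4 fell by 0.11 (adjusted p = 0.00013) and MCM5 by 0.10 (adjusted p = 0.0017), whereas MCM3 rose by 0.065 ± 0.023 (adjusted p = 0.018), from 235, 229, 239 and 238 CPM to 251, 241, 239.8 and 253. MCM6 and MCM7, of the same ring, gave -0.045 and -0.023 and did not pass. CDC6, which loads the ring, rose by 0.083 ± 0.030 (adjusted p = 0.018), from 85.4, 82.3, 83.8 and 87.3 CPM to 88.4, 89.1, 88.7 and 92.9. The values of its partner CDT1 (-0.071), of ORC1 (0.075) and of ORC6 (-0.032) did not pass the test.

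In the fork helicase class, 2 of 6 genes rose and none fell. MCM10, a scaffold that helps to activate the helicase, read 48.7, 50.2, 49.97 and 52.4 CPM in Control and 54.0, 54.9, 56.7 and 55.5 in Dox libraries, a change of 0.14 ± 0.035 (adjusted p = 0.0012) without overlap. GINS2 rose by 0.13 ± 0.051 (adjusted p = 0.034), from 19.6, 21.2, 21.1 and 21.1 to 23.3, 21.4, 23.1 and 22.5 CPM. The GINS2 call was lost in 4 of the 8 fits that left out 1 library, among them that without Control replicate 1, its lowest (0.092, adjusted p = 0.16), and in DESeq2 (adjusted p = 0.094). The other GINS subunits and CDC45 ran from -0.044 to 0.11 and were not called.

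Of the polymerase genes, POLD3 and POLE fell and POLE2 rose. POLD3, an accessory subunit of polymerase delta, went from 57.5, 61.2, 59.4 and 60.5 CPM to 55.1, 54.6, 54.3 and 52.5, a change of -0.14 ± 0.034 (adjusted p = 0.00054). POLE, the catalytic subunit of the leading strand polymerase, went from 213, 204, 206 and 203 CPM to 189.7, 193, 191 and 187, a change of -0.12 ± 0.024 (adjusted p = 3.1e-05). POLE2, the second subunit of the same enzyme, was estimated at 0.11 ± 0.047 (adjusted p = 0.044), but Control (28.5, 27.4, 26.3 and 26.9 CPM) and Dox libraries (29.5, 26.9, 30.2 and 31.2) overlapped. POLE2 lost its call in 6 of 8 fits that each left out 1 library, with adjusted p up to 0.25 without Dox replicate 4. With no library left out, 5 of 9 alternative runs called it. POLD1, POLA1, POLA2, PRIM1 and PRIM2 were not called, with values from -0.029 to 0.060.

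RFC5, a subunit of the clamp loader, showed the largest rise. It read 47.3, 46.1, 48.9 and 49.3 CPM in Control and 52.4, 55.0, 52.3 and 55.2 in Dox libraries, a change of 0.17 ± 0.036 (adjusted p = 0.00011) that was called in all 8 fits that left out 1 library. The other loader subunits RFC2, RFC3 and RFC4 gave -0.014, -0.0050 and -0.073, and PCNA itself 0.033, with a 95% interval from -0.013 to 0.079. None of these passed. Neither the single-strand binding proteins RPA1, RPA2 and RPA3 (-0.023 to 0.075) nor FEN1 and LIG1 (-0.0071 and -0.026) were called.

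UHRF1, which directs maintenance DNA methylation behind the fork, showed the largest fall of the 38. Its libraries read 89.1, 92.4, 92.3 and 89.7 CPM in Control and 81.2, 82.5, 78.7 and 76.0 with Dox, a change of -0.19 ± 0.031 (adjusted p = 6.8e-07). It was called in all 8 fits with 1 library left out but not in one fit over all 24 libraries (-0.19, adjusted p = 0.11), where RFC5 alone of the 14 was called. CHAF1A, the large subunit of the histone chaperone CAF-1, moved the other way, from 46.1, 47.0, 47.3 and 46.1 CPM to 51.6, 52.2, 50.6 and 48.7, a change of 0.12 ± 0.036 (adjusted p = 0.0044). Its partner CHAF1B was not called (0.017). TYMS fell by 0.069 (adjusted p = 0.0084), from between 265 and 267 CPM to between 250.3 and 260.3.

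**Figure D3:**
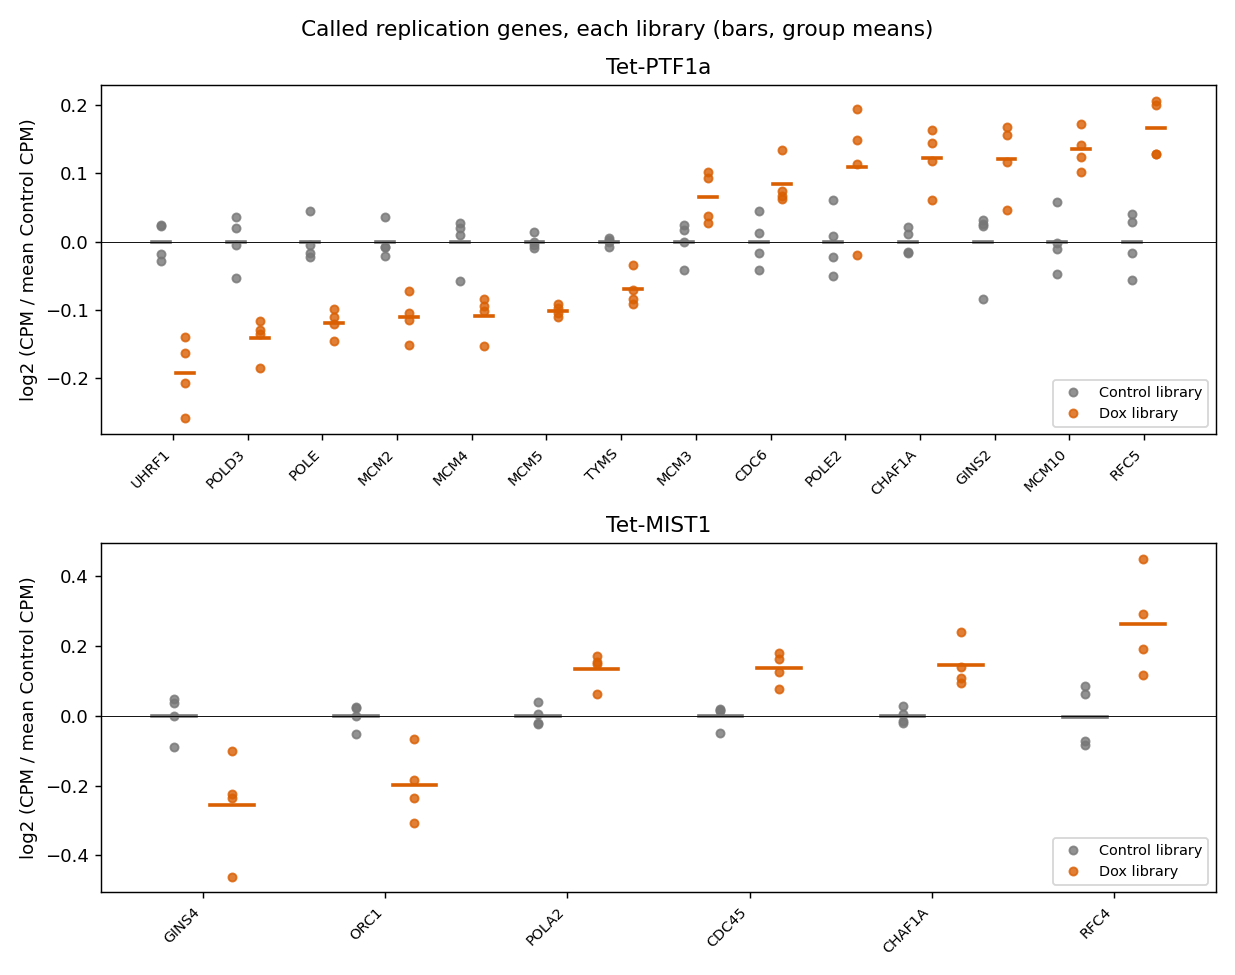
Each called replication gene in each library, as log2 of CPM over the mean of the line's Control libraries, for 14 genes in Tet-PTF1a (top) and 6 in Tet-MIST1 (bottom); points are libraries (grey, Control; orange, Dox) and bars are group means. Control and Dox points are apart for every gene but POLE2, and the Dox points of RFC4 and GINS4 in Tet-MIST1 spread most widely.

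MIST1 induction gave fewer calls, also in both directions. Of the 38 genes, 6 were called (15.8%, against 20.6% of the 13623 genes tested), of which RFC4, CHAF1A, CDC45 and POLA2 rose (4, 10.5%, against 11.9%) and GINS4 and ORC1 fell (2, 5.26%, against 8.77%). The median of the members was -0.0062, against -0.0036 over all genes, and the 95% intervals lay between -0.41 and 0.42. Control and Dox libraries did not overlap for 12 members (6 above and 6 below, 31.6%, against 26.9% of all genes). All 6 calls were lost without Control replicate 1 (adjusted p from 0.076 to 0.14), and without any other single library between 1 and 9 genes were called.

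RFC4, another subunit of the clamp loader, rose most. It read 97.4, 108, 98.2 and 109.6 CPM in Control and 141, 112, 126 and 118 in Dox libraries, a change of 0.27 ± 0.071 (adjusted p = 0.022). Dox replicate 1 was the highest of these, and with the trend on exon length removed from each library the change of RFC4 was 0.17 (adjusted p = 0.021). POLA2, the regulatory subunit of polymerase alpha, rose by 0.13 ± 0.042 (adjusted p = 0.042), from 114, 112, 117 and 112 CPM to 126, 118, 126 and 128. CDC45 rose by 0.14 ± 0.044 (adjusted p = 0.045), from 52.4, 54.7, 54.9 and 54.9 CPM to 61.5, 57.2, 59.3 and 60.8, and was not called with the length trend removed (0.072, adjusted p = 0.20), though it was with the GC trend removed as well (0.11, adjusted p = 0.024).

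GINS4 showed the largest fall in Tet-MIST1 cells. It read 21.2, 20.6, 19.4 and 21.3 CPM in Control and 15.0, 17.5, 19.2 and 17.6 in Dox libraries, a change of -0.25 ± 0.072 (adjusted p = 0.031). ORC1, the largest subunit of the origin recognition complex, read 42.4, 42.5, 41.8 and 40.3 CPM in Control and 33.7, 35.4, 36.8 and 39.9 with Dox, a change of -0.20 ± 0.056 (adjusted p = 0.029). For both GINS4 and ORC1, Dox replicate 1 was the lowest Dox library, and the call was kept in 4 of 8 fits that left out 1 library. CHAF1A rose by 0.15 ± 0.046 (adjusted p = 0.042), from 60.9, 61.8, 60.1 and 59.8 CPM to 66.8, 64.8, 65.4 and 71.6. It was the 1 gene called in both Tet-PTF1a and Tet-MIST1 cells, and it rose in both. In Tet-MIST1 its call, like those of CDC45 and POLA2, was kept in 2 of 8 fits that left out 1 library (adjusted p up to 0.12 for CHAF1A). Of the 38 genes, 19 were called in neither line. The matching shares of all genes are not given here, so neither the 1 shared call nor the 19 is read as particular to these genes.

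Doxycycline alone, in Tet-One cells, gave no call at an FDR of 0.05 in edgeR among the 38 genes or among all 13428 tested (0%), and DESeq2 called no member either. At an unadjusted p under 0.05, edgeR listed 1 of the 38 and 401 of all genes. No member had Control and Dox libraries apart, against 2.41% of all genes. The libraries varied more here, and the 95% intervals of the 38 ran from -0.59 for POLE to 0.77 for RPA3, although 21 of them lay within 0.3 of 0 on either side. The smallest p belonged to CDT1, at 21.0, 24.9, 23.2 and 27.7 CPM in Control and 35.2, 29.3, 27.4 and 26.9 in Dox libraries, which overlapped (0.29 ± 0.12, adjusted p = 0.90). CDC45 followed, at 30.2, 31.5, 30.1 and 32.2 CPM in Control and 35.9, 34.1, 34.7 and 31.8 with Dox (0.14 ± 0.066), and then POLD1, at 53.7, 63.7, 59.95 and 67.5 CPM and at 64.3, 73.7, 68.8 and 68.5 (0.17 ± 0.086). Both overlapped as well.

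Of the Tet-One Dox libraries, replicate 1 deviated most. Against the mean of the other 3 Dox libraries, Tet-One Dox replicate 1 differed by -1.12 for POLE and 1.07 for RPA3 on the log2 scale, and by more than 0.2 for 23 of the 38 genes. Over the 38 genes its deviation fell with exon length (Pearson's r = -0.87, a description over genes that share the library). Tet-MIST1 Dox replicate 1 deviated in the same order, from -0.40 for POLE to 0.32 for RPA3 (r = -0.83 over 38 genes), and the farthest deviation in a Tet-PTF1a Dox library was -0.20, for GINS4 in replicate 1.

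**Figure D4:**
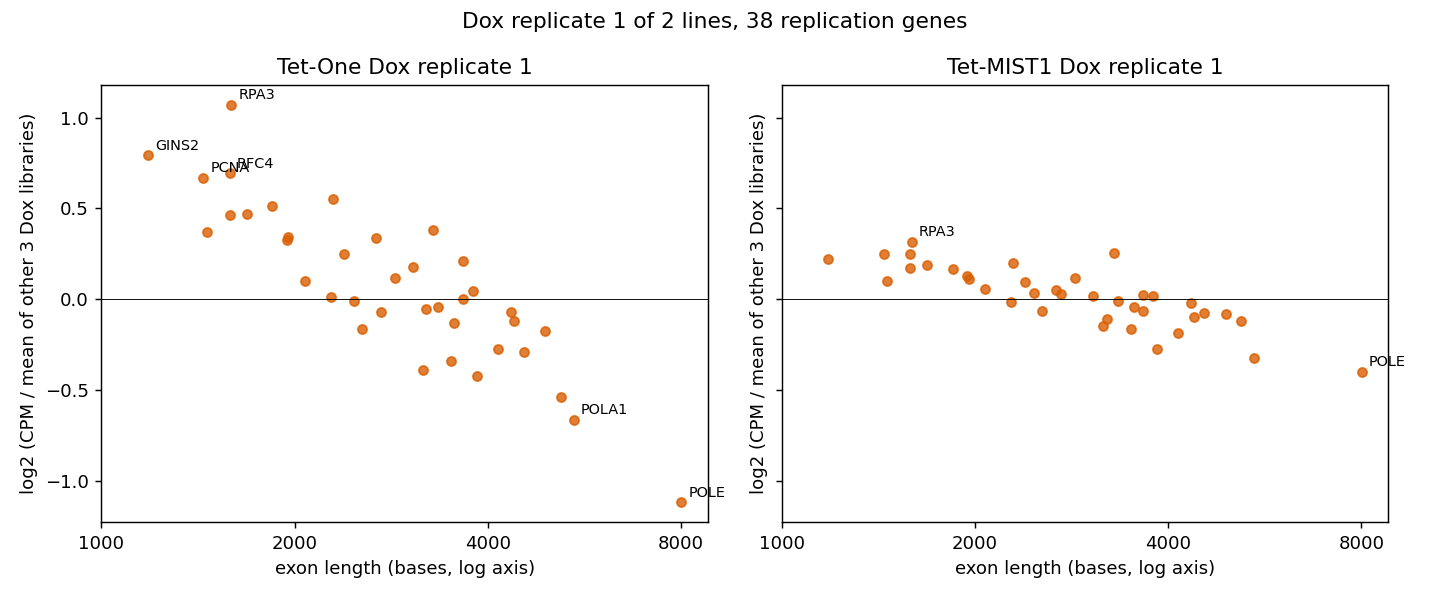
Log2 ratio of CPM in Dox replicate 1 to the average CPM of Dox replicates 2, 3 and 4 of the same line, against exon length in bases on a log axis, for the 38 genes in Tet-One (left) and Tet-MIST1 (right). Short genes such as RPA3 lie above 0 and the longest, POLE, lies lowest in both, at -1.12 and -0.40.

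The response to Dox was compared between lines by an interaction term over 16 libraries. Between Tet-PTF1a and Tet-MIST1, which share no library, 9 of the 38 differed (23.7%, against 36.4% of the 13521 genes tested). ORC1 (0.28 ± 0.069, adjusted p = 0.0033), MCM10 (0.20), RFC5 (0.17), CHAF1B (0.15) and MCM3 (0.13) responded more positively in Tet-PTF1a, and RFC4 (-0.33 ± 0.086, adjusted p = 0.0046), TYMS (-0.19), CDC45 (-0.17) and MCM4 (-0.12) more positively in Tet-MIST1. Library-size scaling made the split 9 and 2. For UHRF1 and POLE, which fell in Tet-PTF1a cells and gave -0.11 and -0.19 in Tet-MIST1 cells without passing, the difference in response was -0.070 ± 0.059 (adjusted p = 0.37) and 0.083 ± 0.091 (adjusted p = 0.50), which did not pass.

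Against the empty plasmid line, no replication gene differed in its response, either for Tet-PTF1a (0 of 38, against 12.8% of 13521 genes) or for Tet-MIST1 (0 of 38, against 1.66% of 13879). At an unadjusted p under 0.05, edgeR listed 3 and 2 of the 38, and DESeq2 called 0 and 1 at its adjusted threshold. Without Tet-One Dox replicate 1, 11 members differed for Tet-PTF1a (30.7% of all genes did) and 3 for Tet-MIST1 (13.9% of all genes). UHRF1 (-0.31 ± 0.064, adjusted p = 0.00039) and POLE (-0.24 ± 0.042) were among the 11, and ORC1 (-0.32), POLE (-0.31) and RFC4 (0.34) were the 3. The number of calls against Tet-One thus depends on whether that library is kept. With it kept, the number also changed with the method and with removal of the length trend, as given in the closing section.

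Larger differences among the 38 genes were found between the lines without doxycycline, a comparison added after the data were seen. In Tet-MIST1 Control cells 31 genes were higher than in Tet-One Control cells (81.6%, against 32.7% of the 13879 genes tested) and 1, CDC6, was lower (2.63%, against 31.5%). The median difference was 0.42 on the log2 scale, 1.34-fold, while the median over all genes was 0.00074. Regardless of sign, the median size was 0.42 for the members and 0.38 for all genes. The members thus stood apart in their shared direction more than in size. Higher were 9 of 10 licensing genes, all 6 of the fork helicase, 5 of 8 polymerase genes, 4 of 5 clamp genes, 2 of 3 RPA genes, 1 of 2 Okazaki genes and all 4 of the last class. RFC5, POLD3, POLE, POLE2, RPA3 and FEN1 were not called. Leaving out any 1 Control library gave 29 to 31 calls, and library size, upper quartile, DESeq2 and removal of the length and GC trend gave 32 to 34.

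RFC3 differed most, at an RPKM of 14.6 ± 0.59 in Tet-One, 18.0 ± 0.34 in Tet-PTF1a and 56.6 ± 1.4 in Tet-MIST1. The ranges of the lines did not overlap, and Tet-MIST1 exceeded Tet-One 3.89-fold (log2 1.96 ± 0.058, adjusted p = 1.3e-13). POLA1 (5.34 ± 0.30 against 11.9 ± 0.18) was 2.24-fold higher and TYMS (146 ± 2.9 against 285 ± 4.2) 1.97-fold higher. CDC45 (0.74), GINS2 (0.71) and CHAF1B (0.67) came next. CDC6, the exception, read 28.4 ± 0.53 in Tet-One and 22.8 ± 0.98 in Tet-MIST1 (-0.31 ± 0.057, adjusted p = 0.00019).

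For the 3 genes with the largest difference, their nearest tested neighbours were read in the same comparison. Around RFC3 (13:34392206-34540695 in hg19, plus strand), STARD13 differed by 2.30, KL by 3.47, PDS5B by 1.09 and N4BP2L2 by 1.00, whereas NBEA gave 0.093 and N4BP2L2-IT2 gave -0.043, and neither was called. Around POLA1 (X:24712064-25015102, plus strand), all 6 neighbours were higher in Tet-MIST1, from EIF2S3 (0.93) to SAT1 (1.73). Around TYMS (18:657604-673499, plus strand), CLUL1 differed by 2.36, YES1 by 0.49 and USP14 by 0.33, and THOC1 gave -0.023 and was not called. TYMSOS differed by 1.04 and ENOSF1 by 0.14. Exons of both overlap those of TYMS, so their counts may hold reads of TYMS. Of all genes tested in this comparison, 32.7% were called higher in Tet-MIST1. Whether these neighbours share a cause with the replication genes was not tested.

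**Figure D5:**
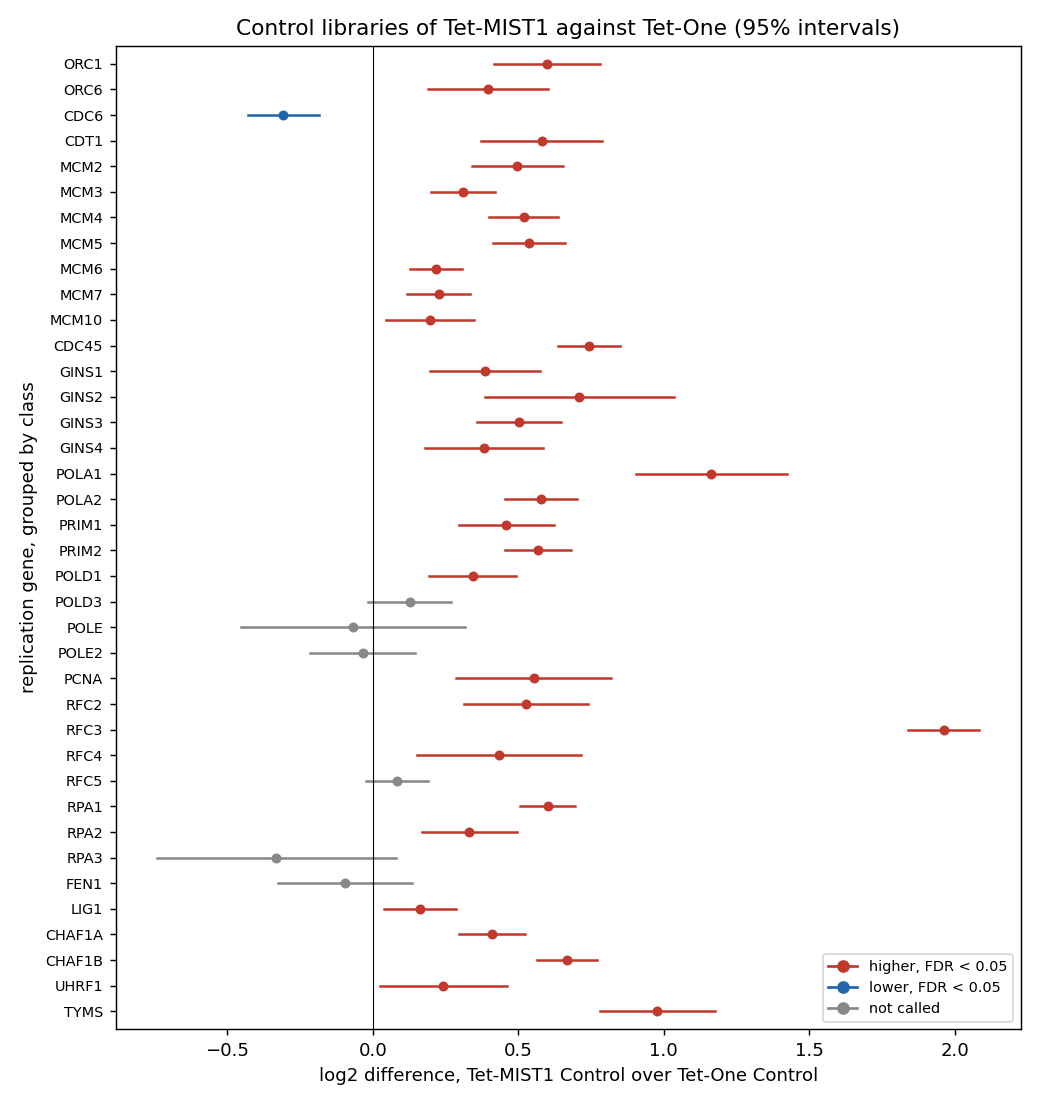
Log2 difference between Control libraries of Tet-MIST1 and Tet-One for each replication gene with its 95% interval, 4 libraries a group, in red where Tet-MIST1 was higher, blue where it was lower and grey where it was not called. Points lie to the right of 0 for 33 of the 38 genes, RFC3 at 1.96 lies farthest, and CDC6 is the one gene called lower.

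Tet-PTF1a Control cells differed from Tet-One in both directions. Regardless of sign, the median difference of the members was 0.16, smaller than the 0.36 of all genes. Against Tet-One Control, 12 genes were higher (31.6%, against 32.8% of all genes) and 7 were lower (18.4%, against 32.8%), with a median of 0.13 and POLA1 (0.58) and POLD1 (-0.55) at the ends. Library-size scaling gave 16 higher and 4 lower, and leaving out Tet-One Dox replicate 1, which shares the estimate of spread, gave 20 and 10. Against Tet-MIST1 Control, 3 genes were higher, RPA3, CDC6 and POLE (7.89%, against 41.7%), and 27 were lower (71.1%, against 41.7%). RFC3 (-1.67), POLD1 (-0.88) and TYMS (-0.82) differed most. These Control comparisons share libraries with each other.

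Other genes of DNA replication, 48 from a separate list, moved in both directions, but less evenly than the 38. In Tet-PTF1a cells falls outnumbered rises: 6 rose and 17 fell, where 23.8% and 24.4% of all genes did. The share called in either direction was 47.9%, against 48.2% of all genes. The falls were led by CTPS1, which makes CTP (-0.36 ± 0.024, adjusted p = 4.7e-18), the polymerase delta subunit POLD4 (-0.28) and CDCA7 (-0.28), and the rise by POLD2 (0.26 ± 0.027, adjusted p = 2.3e-11). POLD2 rose from 136 ± 6.1 to 162 ± 2.5 CPM and POLD4 fell from 43.5 ± 0.88 to 35.7 ± 2.9, so with POLD3 and the uncalled POLD1 the subunits of polymerase delta did not move together. In Tet-MIST1 cells 10 of the 48 rose and 3 fell, where 11.9% and 8.77% of all genes did. Here 27.1% of the 48 were called, against 20.6% of all genes. In front were DSCC1, of the alternative clamp loader (0.42 ± 0.067), RNASEH2A, which removes ribonucleotides (0.41), and thymidine kinase TK1 (0.32).

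Of 18 E2F and pocket protein genes, 7 rose and 3 fell in Tet-PTF1a cells (23.8% and 24.4% of all genes). The activator E2F2 rose by 0.37 ± 0.045 (adjusted p = 1.8e-09) and E2F5 by 0.22, while E2F1, the best known activator, changed by -0.22 ± 0.032 (adjusted p = 1.5e-07) and the pocket protein gene RB1 by -0.18. In Tet-MIST1 cells 3 rose and 2 fell (11.9% and 8.77% of all genes). TFDP2 (0.22), E2F6 (0.17) and E2F1 (0.17 ± 0.052, adjusted p = 0.037) were those that rose, so that E2F1 was called in opposite directions in the 2 lines, and E2F3 changed by -0.21. CDKN1A, the p21 inhibitor of cyclin-dependent kinases, rose by 0.26 ± 0.055 in Tet-PTF1a cells (adjusted p = 9.1e-05) and gave 0.029 in Tet-MIST1 cells, which was not called. Of 20 genes of mitosis, 2 rose and 6 fell in Tet-PTF1a cells (23.8% and 24.4% of all genes), with a median of -0.029. In Tet-MIST1 cells 6 of them rose and none fell (11.9% and 8.77% of all genes), with a median of 0.063. The mitotic kinase gene PLK1 rose by 0.15 with PTF1a, and CCNB1 (-0.14), CDK1 (-0.13) and BUB1 (-0.11) fell. AURKB (0.24), BIRC5 (0.21) and the kinetochore gene NDC80 (0.20) led the rises with MIST1. No gene of these lists was called in Tet-One cells. For genes of these lists and the other replication genes, fits with a library left out or the length trend removed are not given here. Tet-MIST1 Dox replicate 1, whose deviations fell with exon length, enters each of their Tet-MIST1 values.

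Exons of 4 members overlap genes on the opposite strand in the deposited gene models, MCM7 with AP4M1 (327 bases), RFC4 with EIF4A2 (4), TYMS with ENOSF1 (888) and TYMSOS (106), and RPA3 with UMAD1 (186). Strand use in the counting is not given in the sources used here, so their counts may hold reads of the partner.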

How the data were processed

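Polyadenylated RNA of 24 libraries was sequenced by the authors as paired-end reads. The submitters' processing notes name TopHat, HTSeq, DESeq, edgeR and build hg19, and counting settings are not given in the sources used here. The deposited count of reads per gene, in 1 table per line that the authors had filtered at above 0.5 CPM in at least 4 libraries, was analysed without change. The 24 deposited CPM columns and the 9 columns of the authors' own comparisons (log2 fold change, p-value and FDR of each line) were not used. The deposited exon length, in bases, is of the other unit kind. The edgeR package (4.0.16, R 4.3.3) was used with TMM factors, the same filter and robust quasi-likelihood F-tests on the 8 libraries of a line, or on 16 libraries for interaction terms and Control comparisons. Benjamini-Hochberg adjustment ran over all genes tested, an FDR under 0.05 was called, and no fold limit was set. CPM values in the text were computed from counts with TMM factors within a line. DESeq2 (1.42.0) and the other alternatives are given in the closing section. Counts of replicates differed by more than sampling noise in all 36 pairs (chi-square per degree of freedom from 1.39). The main script was tested on simulated data.

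Members and lists were chosen with earlier results of these data known. Genes were named by rule: the 8 called members with the largest change in Tet-PTF1a and 6 in Tet-MIST1, members against most of their class, the 3 smallest p in Tet-One, and the largest called changes of the other lists. Genes named in the Control comparison, their neighbours and the remaining called members were chosen after their values were seen. GC content came from GRCh37 and promoter sequences from RefSeq on GRCh38.p14. No promoter sequence was matched for MCM4, MCM5, GINS4, POLD3, RPA2 and RPA3. Every member had at least 240 counts in every library. In Tet-PTF1a cells the SE of the log2 fold change was still larger for GINS3, which held that lowest count (0.063), than for MCM7 (0.021).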

Additional observations from a re-analysis of the deposited data

Results flagged for a closer look

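Dixon's criterion was applied to the libraries of the genes named for the largest called change or the smallest p in their line. It was also applied to the share of counts on the replication genes. Of these 40 groups of 4 libraries, 3 held a library far from the others, where chance alone gives about 1 in 20. GINS2 read 19.6 CPM in Tet-PTF1a Control replicate 1, below the other Control libraries, and without that library its change with Dox was 0.092. CDC45 read 52.4 CPM in Tet-MIST1 Control replicate 1, below the others, and without it the change of CDC45 was 0.12 and was not called. The 38 genes took 0.373% of the counts in Tet-PTF1a Control replicate 1, the lowest share of its group. MCM2, MCM3 and CDC6 in Tet-PTF1a, also printed by library, were not among the groups tested. Of these, CDC6 read 92.9 CPM in Dox replicate 4, where the other Dox libraries read 88.4 to 89.1.

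The response to Dox differed between Tet-PTF1a and Tet-MIST1 for 9 genes by the interaction term. The differences, Tet-PTF1a minus Tet-MIST1 on the log2 scale, were 0.28 for ORC1, 0.13 for MCM3, -0.12 for MCM4, 0.20 for MCM10, -0.17 for CDC45, -0.33 for RFC4, 0.17 for RFC5, 0.15 for CHAF1B and -0.19 for TYMS. The adjusted p in edgeR ran from 0.0033 for ORC1 to 0.047 for MCM4. Tet-MIST1 Dox replicate 1, whose deviations fell with exon length, enters each of these, and without it 12 genes differed.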

How the results depend on the processing

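For the genes named for the largest called change or the smallest p in their line, no direction reversed under any alternative run. The directions of the other called genes of Tet-PTF1a (MCM2, MCM3, MCM4, MCM5, CDC6 and TYMS) were not recomputed under these runs. The directions of uncalled genes near 0 were not recomputed, and library-size scaling, which shifts the median of all genes in Tet-PTF1a from 0.0014 to 0.039, can turn them. A minimum change of 0.2 on the log2 scale left 0 of 14 calls in Tet-PTF1a, 2 of 6 in Tet-MIST1 and 3 of 9 differences between them. One fit over all 24 libraries, whose spread includes Tet-One, left 1 call in Tet-PTF1a and 3 in Tet-MIST1. In Tet-MIST1, upper quartile scaling gave 3 calls and removal of the exon length and GC trend (chosen after seeing the data) 10. Between Tet-PTF1a and Tet-One, the length trend removed gave 3 and length with GC 2, and between Tet-MIST1 and Tet-One, DESeq2 gave 1, each against 0. The cause was not tested.

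With 1 library left out at a time, calls ran from 11 to 15 in Tet-PTF1a, 0 to 9 in Tet-MIST1 and 0 to 0 in Tet-One. Differences in response ran from 0 to 11 (Tet-PTF1a and Tet-One), 0 to 3 (Tet-MIST1 and Tet-One) and 5 to 12 (Tet-PTF1a and Tet-MIST1). Control comparisons ran from 15 to 30 (Tet-PTF1a and Tet-One), 29 to 34 (Tet-MIST1 and Tet-One) and 30 to 30. The 150 bases next to the start held an E2F site for 12 genes in place of 18.

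Same-numbered Control and Dox libraries did not deviate together (correlations from -0.44 to 0.39 over 12 numbers), so the number was not taken as a pairing. The replicate block gave 14 calls in Tet-PTF1a, 0 in Tet-MIST1 and 0 in Tet-One, and 4 differences between Tet-PTF1a and Tet-MIST1.

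What Tet-One can resolve differs by gene, with 21 of 38 intervals within 0.3 of 0. Each line is 1 clone, so line, clone and passage cannot be told apart. None of the calls in Tet-PTF1a reached 0.2 on the log2 scale.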
